A study of Mus musculus with 4 samples.

Results

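The 7 genes described here encode the antigen-presenting machinery of MHC class II: the invariant chain (Cd74), the classical chains (H2-Aa, H2-Ab1 and H2-Eb1), the peptide-loading catalyst DM (H2-DMa and H2-DMb1) and the master coactivator of the pathway (Ciita). They were picked by gene symbol, and all 7 were found among the 56793 gene rows of the deposited table. RNA had been measured in 4 libraries of cells sorted from mouse bone marrow as megakaryocytes (Mk), 2 from old and 2 from young animals. Both groups carry the same genotype label, Blc6, and no treatment is named. The labels give neither ages, nor the sorting gate, nor how many animals went into a library, so each p-value reflects the variation among 4 libraries, which could be technical in origin. Megakaryocytes are the marrow cells that shed platelets, and the study's title concerns platelet factor 4 and the ageing of blood stem cells.

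An MHC class II molecule is a pair of an alpha and a beta chain that shows peptides from engulfed proteins to CD4+ T cells. The invariant chain holds the new pair in the endoplasmic reticulum, fills its groove and steers it to endosomes, where proteases cut the invariant chain down to a fragment called CLIP. DM, a class II relative that stays inside the cell, then swaps CLIP for a peptide. Ciita is recruited to class II promoters by factors bound at the X and Y boxes, and in marrow the pathway is best known from B cells, dendritic cells and macrophages, while plasma cells switch Ciita off.

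The promoters are shown first because the same boxes lie before several members whose levels are set side by side below. RefSeq promoter windows (build GRCm38.p6) were held for 4 of the 7 members, namely H2-Aa, H2-Eb1, H2-DMb1 and H2-DMa, all on chromosome 17. The lines below give the 150 bases before the start of H2-Aa and H2-Eb1 and of H2-Ob, a related gene, 5′ to 3′ on the gene's strand. Capitals mark a short X box (CTNGNNAC) and the Y box (ATTGG) that follows it.
H2-Aa, chr17:34287824-34287973, minus strand: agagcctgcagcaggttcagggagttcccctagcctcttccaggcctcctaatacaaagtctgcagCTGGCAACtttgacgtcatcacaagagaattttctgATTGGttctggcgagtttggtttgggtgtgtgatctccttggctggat
H2-Eb1, chr17:34305717-34305866, plus strand: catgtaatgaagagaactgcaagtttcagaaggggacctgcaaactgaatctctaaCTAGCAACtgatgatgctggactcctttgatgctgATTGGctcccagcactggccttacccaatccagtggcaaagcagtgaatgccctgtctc
H2-Ob, chr17:34238755-34238904, plus strand: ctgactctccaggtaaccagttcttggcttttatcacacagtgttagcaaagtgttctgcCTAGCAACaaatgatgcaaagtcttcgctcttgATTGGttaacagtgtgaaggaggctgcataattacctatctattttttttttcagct

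The X box began at position -84 in H2-Aa, -94 in H2-Eb1, -97 in H2-DMb1 and -90 in H2-Ob, counted from the RefSeq start, with 28, 27, 28 and 25 bases between it and the Y box. Searched on both strands over the 250 bases before the start, this pair with a gap of 15 to 40 bases was in 1.03% of 32851 mouse windows, while ATTGG alone was in 33.8% and CTNGNNAC alone in 35.6%. The short form was chosen after the sequences were seen. The full X1 box was in 0.0731% of windows and, among members, in that of H2-DMb1, where it read CCTAGTAACTGATG at -98. The X1 core, which lies within the full form, was in 14.2% of windows, and core and Y box together in 0.374%. The cAMP-response letters TGACGTCA, the usual X2 box, stood at -74 in H2-Aa and in 1.55% of all windows. The interferon motifs GAS (TTCNNNGAA, 7.02% of windows) and the ISRE core (2.98%) were not in the window of any member. GENCODE places the start of H2-DMb1 119 bases upstream of the RefSeq one, so these boxes lie just past that start and no longer stretch of its window is printed. A window held for H2-DMa lies just before the GENCODE start at chr17:34122832. The windows of H2-DMa contain no exact X and Y pair, and they do not cover its other GENCODE starts, at chr17:34135628 and chr17:34135654. Among the relatives with a window, only H2-Ob held the pair with these exact letters. H2-Oa and H2-DMb2 held a Y box without an exact short X box, and H2-DMb2 also held a GAS motif at -218. A near match, off by a letter, stood before the Y box in both, ccagcaac in H2-Oa and ctattaac in H2-DMb2. Near matches were not counted over all windows, so a window without the exact pair may still hold both boxes. In H2-Eb2 an exact short X box match was at -12, after the Y box at -100, and a near match (ccagcaac) stood before that Y box. A match is a description of letters and not of binding.

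Levels are given as TPM, which are corrected for transcript length, so that genes can be set side by side. Each library's TPM sum to 1000000 and keep no sequencing depth, so the depth behind a value is unknown. Across genes, which are not independent replicates, log2 values correlated at 0.980 in the old pair, 0.988 in the young pair and 0.948 to 0.958 between groups. Immunoglobulin genes took 13.3% and 13.1% of TPM in old and 1.03% and 0.896% in young libraries, which lowers every other gene in old samples on a fixed total. Pf4, the megakaryocyte marker, was at 433 and 598 TPM in old and 746 and 832 TPM in young libraries, while S100a9, a neutrophil gene, was the most abundant gene of all 4 libraries, at 51120 and 49830 TPM in old and 59320 and 55650 TPM in young libraries. These marker levels go against a pure megakaryocyte label, and the cells that held the class II RNA are not known.

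Old and young were compared with limma on log2(TPM + 1) over the 16073 genes whose mean reached 1 TPM, two-sided, with Benjamini-Hochberg adjustment over all of them and a threshold of 0.05. Fold changes are on that scale. Of the 7 members, 2 rose (Cd74 and H2-Eb1) and 0 fell, where 19.9% of all genes were called, 5.2% higher and 14.7% lower in old. Old libraries lay above young ones without overlap for 3 members (21.8% of all genes) and below for 1 (46.1%), 4 of 7 in all (67.9%). At an unadjusted p under 0.05, 2 members were higher and 1 was lower, beside 1810 higher and 4507 lower of the 16073 genes. Those totals are also the background for the unadjusted counts of the lists below. The median log2 change was 0.18 over the members and -0.10 over all genes tested. With immunoglobulin genes removed and the rest rescaled, these medians were 0.37 and 0.07, and 3 members were called higher and 0 lower, against 8.02% and 3.15% of all genes (11.2% in all). Under median-ratio scaling 0 members were called in either direction, and 5.93% of genes were higher and 5.6% lower (11.5% in all). None of the 7 genes was among the 1255 in the authors' deposited table of changed genes.

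**Figure D1:**
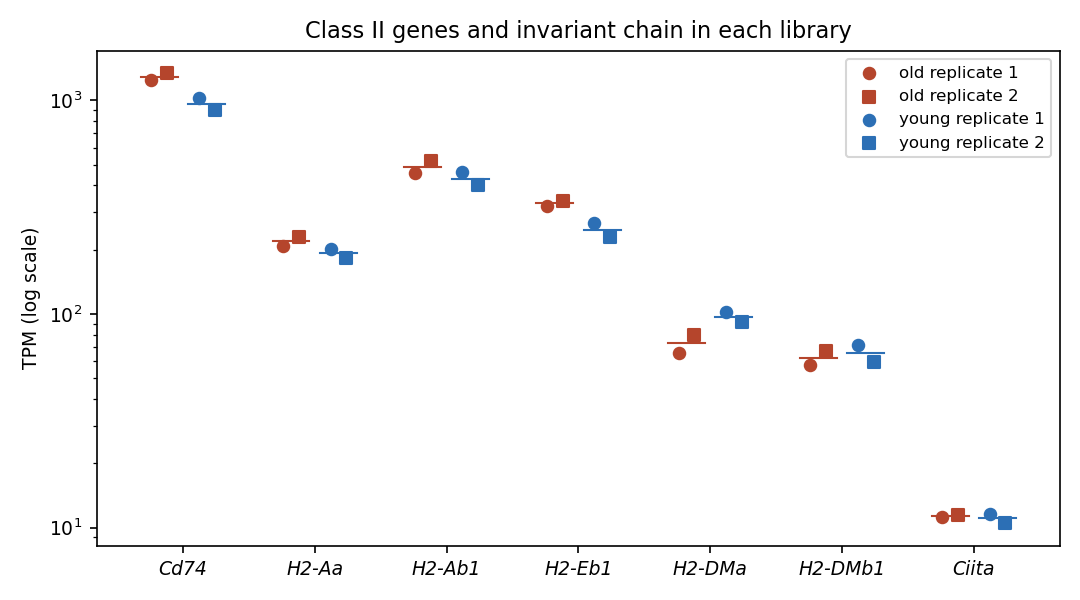
TPM on a log scale for each of the 7 genes in each library, old (red) left of young (blue), with circles for replicate 1, squares for replicate 2 and lines for group means of 2 libraries. Cd74 was the highest and Ciita the lowest in all 4 libraries, and on these deposited values the groups did not overlap for Cd74, H2-Aa, H2-Eb1 and H2-DMa.

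The invariant chain gene Cd74 was the most abundant member, at 1241 and 1340 TPM in old and 1028 and 898 TPM in young libraries. Both old libraries lay above both young ones, and Cd74 ranked 70 and 73 among all genes in the old and 124 and 140 in the young libraries. Its mean was 1291 ± 70.0 TPM in old and 963 ± 92.6 TPM in young samples (SD, n = 2 each), a log2 change of 0.42 (SE 0.09, limma adjusted p = 0.0380), and of 0.61 with immunoglobulin genes removed (adjusted p = 0.0182). The rise was not called under median-ratio scaling (adjusted p = 0.0973) or when any 1 library was left out (adjusted p from 0.0572 to 0.243). Cd74 also serves at the cell surface as a receptor for the cytokine MIF, with Cd44, Cxcr2 and Cxcr4 as partners. In that list of 5 genes (Mif, Ddt, Cd44, Cxcr2 and Cxcr4), 1 fell and 0 rose, also at an unadjusted p under 0.05. The one that fell was the chemokine receptor Cxcr4, at 335 and 343 TPM in old and 398 and 393 TPM in young libraries (log2 change -0.22, SE 0.05, limma adjusted p = 0.0473), a change of -0.03 with immunoglobulin genes removed (adjusted p = 0.724), where 1 gene of the list rose and 0 fell.

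H2-Eb1, the beta chain of the I-E molecule, was the other member that rose. It was at 319 and 339.6 TPM in old and 268 and 229 TPM in young libraries, without overlap. The means were 329 ± 14.3 TPM in old and 249 ± 27.5 TPM in young samples (SD, n = 2 each), with a log2 change of 0.41 (SE 0.09, limma adjusted p = 0.0412), and 0.60 with immunoglobulin genes removed (adjusted p = 0.0191). This call too was lost under median-ratio scaling (adjusted p = 0.0820) and when any 1 library was left out (adjusted p from 0.0756 to 0.220). In strains such as C57BL/6 the partner alpha gene, H2-Ea, carries a deletion that keeps I-E from being made. H2-Ea was at 0.0536 and 0.0701 TPM in old libraries and was listed at 0 in both young ones. H2-Eb2, a neighbouring beta chain gene of unclear function, was at 3.99 and 3.81 TPM in old and 3.13 and 2.44 TPM in young libraries, with a log2 change of 0.38 (SE 0.16, limma adjusted p = 0.143).

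H2-Aa and H2-Ab1 encode the alpha and beta chains of I-A. H2-Aa was at 209 and 229.8 TPM in old and 203 and 183 TPM in young libraries. The groups were separate by a narrow margin, and the log2 change was 0.19 (SE 0.08, 95% interval -0.02 to 0.40, limma adjusted p = 0.159). With immunoglobulin genes removed the change was 0.38 and was called (adjusted p = 0.0405). H2-Ab1, the highest of the classical chains, was at 457 and 518 TPM in old and 461 and 401 TPM in young libraries. Old replicate 1 lay just below young replicate 1, so the groups overlapped, and the log2 change was 0.18 (SE 0.10, 95% interval -0.08 to 0.43, limma adjusted p = 0.250). On the rescaled values without immunoglobulin genes it was at 527 and 596 in old and 466 and 405 in young libraries, without overlap, and the change was 0.37 (adjusted p = 0.0632). The share of all genes that separate on that scale was not computed. On the deposited values the interval of each holds both 0 and a change of 0.30 or more, so those values do not show whether the I-A genes changed.

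H2-DMa, the alpha chain of DM, had lower values in old samples but did not pass the test. It was at 65.8 and 79.8 TPM in old and 102 and 91.8 TPM in young libraries, and both old libraries lay below both young ones. The means were 72.8 ± 9.91 TPM in old and 96.8 ± 7.04 TPM in young samples (SD, n = 2 each), with a log2 change of -0.41 (SE 0.11, limma adjusted p = 0.0610). With immunoglobulin genes removed the change was -0.22 (adjusted p = 0.214), at 75.9 and 91.9 in old and 102.8 and 92.6 in young libraries. It passed at a mean of at least 5 TPM (adjusted p = 0.0486) and without old replicate 2, where the change was -0.55 (adjusted p = 0.0422), and was -0.27 without old replicate 1 (adjusted p = 0.107). H2-DMb1, the beta chain, was at 58.0 and 67.0 TPM in old and 71.8 and 59.8 TPM in young libraries, which overlapped (log2 change -0.07, SE 0.12, limma adjusted p = 0.686, and 0.12 with immunoglobulin genes removed). H2-DMb2, a close copy of H2-DMb1 that can share its reads, was at 31.8 and 35.3 TPM in old and 43.4 and 36.8 TPM in young libraries (log2 change -0.25, SE 0.11, limma adjusted p = 0.156), and its change was -0.06 with immunoglobulin genes removed. The sources used here do not say how reads were split between these copies, so each value is uncertain.

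H2-Oa and H2-Ob encode DO, the B cell inhibitor of DM. H2-Oa was at 19.4 and 19.8 TPM in old and 22.6 and 22.3 TPM in young libraries (log2 change -0.18, SE 0.07, limma adjusted p = 0.132). H2-Ob was at 26.1 and 23.0 TPM in old and 29.5 and 30.3 TPM in young libraries (log2 change -0.28, SE 0.09, limma adjusted p = 0.0828). Neither DO gene passed, and their groups did not overlap as deposited, which was true of 46.1% of all tested genes in that direction. Once immunoglobulin genes were removed the groups overlapped for both, with a change of 1.28e-05 for H2-Oa (adjusted p = 0.9999) and -0.09 for H2-Ob (adjusted p = 0.511).

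Ciita, the coactivator, was the lowest member, at 11.3 and 11.4 TPM in old and 11.6 and 10.5 TPM in young libraries. The old values lay between the young ones, and the log2 change was 0.04 (SE 0.10, 95% interval -0.21 to 0.28, limma adjusted p = 0.810). Without immunoglobulin genes it was 0.21 (adjusted p = 0.210), at 13.0 and 13.1 in old and 11.7 and 10.6 in young libraries, which did not overlap. The share of all genes without overlap was not computed on those rescaled values. In mean TPM the order was Cd74, H2-Ab1, H2-Eb1, H2-Aa, H2-DMa, H2-DMb1 and Ciita in both groups. H2-DMa and H2-DMb1 were neighbours whose values overlapped within old samples, and in young samples they did not.

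**Figure D2:**
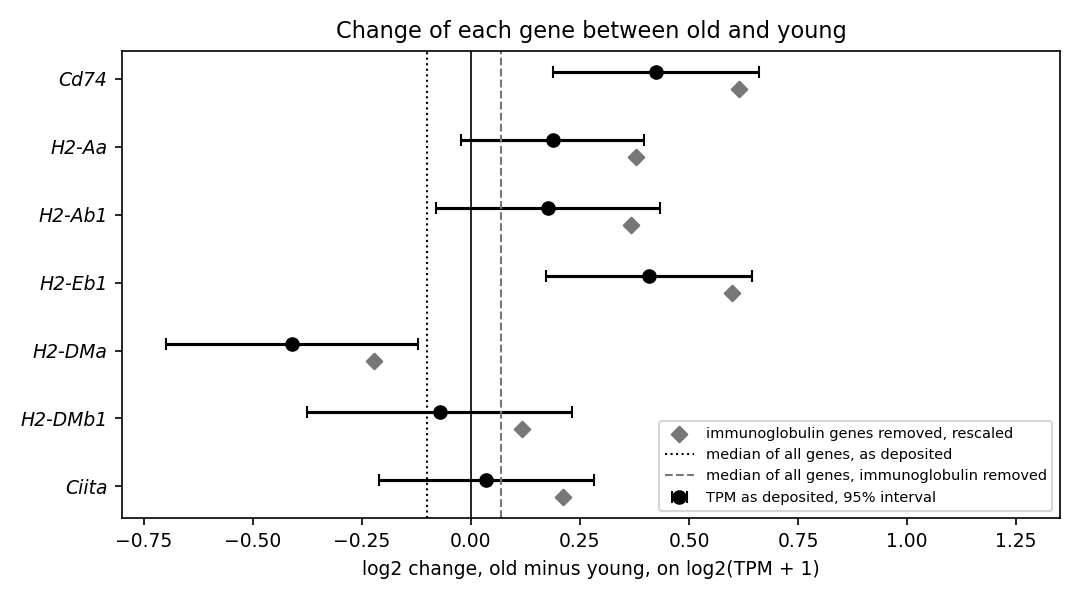
Log2 change of each gene, old minus young, as deposited (black, with the 95% interval of the limma fit) and with immunoglobulin genes removed and the rest rescaled (grey diamonds). Vertical lines give the median of all tested genes under each, -0.10 and 0.07, and Cd74 and H2-Eb1 lie highest while H2-DMa lies lowest under both.

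A ratio of TPM values within one library does not move with the scaling between libraries. The H2-Aa to H2-Ab1 ratio was 0.458 and 0.444 in old and 0.440 and 0.456 in young libraries, so both chains of I-A kept near the same proportion. H2-Eb1 to H2-Ab1 was 0.699 and 0.656 in old and 0.582 and 0.572 in young libraries. Cd74 over the sum of the 3 classical chains was 1.26 and 1.23 in old and 1.10 and 1.10 in young libraries. Both of these ratios were higher in both old libraries. H2-DMa to H2-DMb1 was 1.14 and 1.19 in old and 1.42 and 1.53 in young libraries, and H2-DMb2 to H2-DMb1 was 0.548 and 0.527 in old and 0.605 and 0.615 in young libraries, so the alpha chain and the second beta copy were both lower relative to H2-DMb1 in old samples.

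Further ratios set the genes of the loading catalyst and the coactivator against those of the classical chains or Cd74. The sum of H2-DMa and H2-DMb1 over the sum of H2-Aa, H2-Ab1 and H2-Eb1 was 0.126 and 0.135 in old and 0.186 and 0.187 in young libraries. H2-DMa to Cd74 was 0.0530 and 0.0596 in old and 0.0989 and 0.102 in young libraries, a mean of 0.0563 against 0.101. Ciita over the same 3 chains was 0.0114 and 0.0105 in old and 0.0124 and 0.0129 in young libraries. These 3 ratios were chosen after the values were seen. No ratio was tested.

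**Figure D3:**
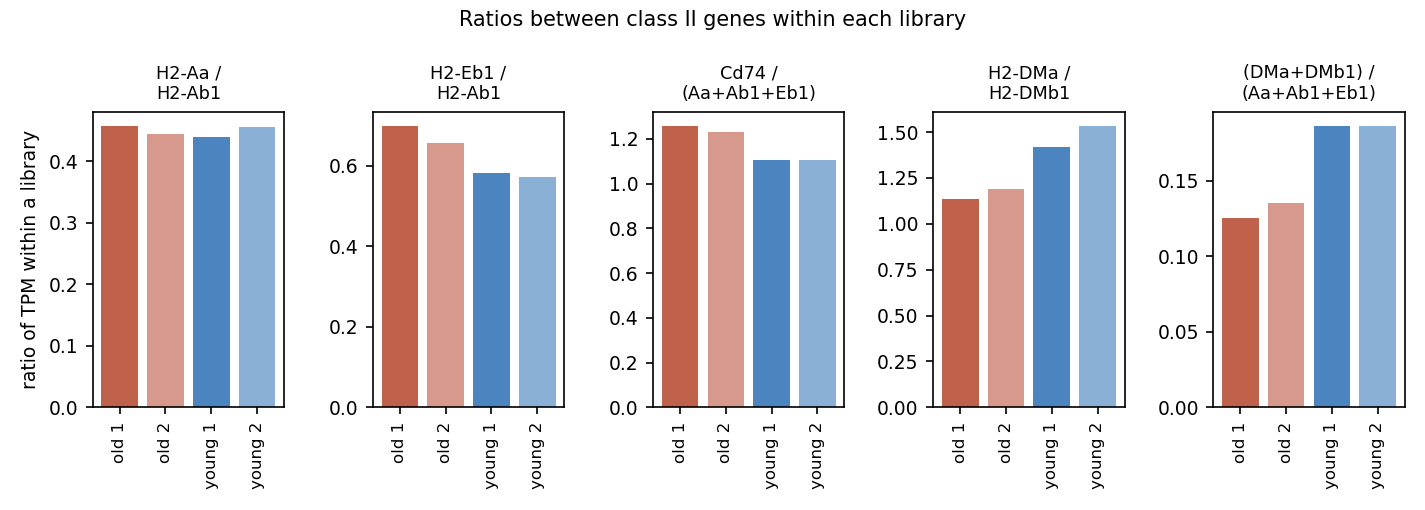
Ratios of TPM between class II genes within each library, as bars from 0, old (red) left of young (blue). H2-Aa to H2-Ab1 was alike in the 4 libraries, while DM over the classical chains was 0.126 and 0.135 in old and 0.186 and 0.187 in young libraries.

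The rest of the pathway was described by 8 lists of 55 genes, of which 54 were in the table and 53 were tested. Of these, 5 rose and 7 fell in old samples, beside 5.2% and 14.7% of all genes. With immunoglobulin genes removed, 9 rose and 0 fell, and under median-ratio scaling 6 rose and 2 fell, so the falls depend on the scaling. Over the 53 genes the log2 change had a median of -0.11, near the -0.10 of all genes tested. Of the 12 calls, that of Prdm1 was kept with any 1 library left out, and the other 11 were lost without young replicate 1 and without young replicate 2. Without old replicate 1 the calls of Irf1, Tap2, Cd86, Ifngr2, Cxcr4 and Rfxap were lost, and without old replicate 2 those of Tap2, Cd86, Ifngr2 and Rfxap.

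Among 12 genes that act upstream of Ciita, 3 rose and 2 fell. Prdm1, the plasma cell repressor that silences Ciita, was at 6.96 and 5.97 TPM in old and 1.63 and 1.497 TPM in young libraries, which did not overlap (log2 change 1.54, SE 0.15, limma adjusted p = 0.0107), with adjusted p from 0.0249 to 0.0367 when 1 library was left out. Irf4, a factor of B and plasma cells, was at 41.3 and 30.5 TPM in old and 20.5 and 18.8 TPM in young libraries (log2 change 0.82, SE 0.15, limma adjusted p = 0.0290). Irf1, the interferon-induced activator of Ciita, rose too, at 120.5 and 113 TPM in old and 94.4 and 97.8 TPM in young libraries, and was named after its value was seen. These 3 rises were called with immunoglobulin genes removed as well (adjusted p = 0.00605 for Prdm1, 0.0190 for Irf4 and 0.0161 for Irf1). Irf8, a factor of dendritic cells, monocytes and B cells, fell to 201 and 209 TPM in old libraries, against 259 and 264 TPM in young ones (log2 change -0.35, SE 0.06, limma adjusted p = 0.0232). Ifngr2, a chain of the interferon-gamma receptor, fell to 46.5 and 45.9 TPM in old libraries, against 55.7 and 59.6 TPM in young ones. Neither fall was called with immunoglobulin genes removed (adjusted p = 0.112 for Irf8 and 0.256 for Ifngr2).

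Of 7 factors that bind the X and Y boxes, 1 fell. It was Rfxap, a subunit of the RFX complex on the X box, at 12.2 and 11.2 TPM in old and 15.4 and 15.5 TPM in young libraries (limma adjusted p = 0.0455, and 0.202 with immunoglobulin genes removed). Of 7 endosomal enzymes 0 passed, with 4 lower and 0 higher at an unadjusted p under 0.05. Of all 16073 genes tested, 4507 were lower and 1810 higher at that threshold. Ctss, the cathepsin that trims the invariant chain, was at 439.8 and 483 TPM in old and 574 and 542 TPM in young libraries (limma adjusted p = 0.0571). Ifi30, a thiol reductase that unfolds antigens, was at 334 and 384 TPM in old and 429 and 451 TPM in young libraries (limma adjusted p = 0.0672). As deposited both lay lower in both old libraries. Once immunoglobulin genes were removed their groups overlapped, with changes of -0.08 for Ctss (adjusted p = 0.456) and -0.11 for Ifi30 (adjusted p = 0.408).

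Of 5 genes that set how long class II stays at the surface, 2 fell. Marchf8, a ubiquitin ligase that sends class II for degradation, was at 22.6 and 18.5 TPM in old and 29.8 and 30.5 TPM in young libraries (log2 change -0.54, SE 0.11, limma adjusted p = 0.0342). Ap2m1, a subunit of the clathrin adaptor of endocytosis, was at 128 and 130.1 TPM in old and 164 and 161 TPM in young libraries (limma adjusted p = 0.0243). Neither was called with immunoglobulin genes removed (adjusted p = 0.0883 and 0.147). In the authors' deposited table Marchf8 had a log2 fold change of -0.37 with an adjusted p of 0.0119. Of the other pathway genes called here, Cd274 and Prdm1 were in that list of changed genes. Irf4, Irf1, Irf8, Ifngr2, Cxcr4, Rfxap, Ap2m1, Cd86 and Tap2 were not.

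Of 6 costimulatory genes 1 rose and 1 fell. Cd274, encoding the inhibitory ligand PD-L1, rose to 17.7 and 15.8 TPM in old libraries, against 9.38 and 8.33 TPM in young ones (log2 change 0.85, SE 0.11, limma adjusted p = 0.0172), and the authors' deposited table gives it 0.70 with an adjusted p of 0.000314. Cd86, an activating ligand, fell to 10.6 and 10.6 TPM in old libraries, against 14.8 and 15.7 TPM in young ones (limma adjusted p = 0.0271, and 0.0837 with immunoglobulin genes removed). Of 7 class I genes 1 rose, the peptide transporter subunit Tap2, at 88.9 and 84.96 TPM in old and 69.9 and 72.9 TPM in young libraries (limma adjusted p = 0.0395), with a log2 change of 0.28 that was 0.47 without immunoglobulin genes.

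Cell type markers were set beside the class II genes because bulk RNA mixes cells, and fewer cells of a type and less RNA per cell cannot be told apart in it. Beside the marker calls, 14.7% of all genes were lower and 5.2% higher as deposited. With immunoglobulin genes removed, 3.15% were lower and 8.02% higher. The summed TPM of Cd74, H2-Aa, H2-Ab1 and H2-Eb1 was 2226 and 2427 in old and 1960.0 and 1710.0 in young libraries. The 14 mature B cell markers summed to 576 and 540 TPM in old and 731 and 682 TPM in young libraries, and 8 fell and 0 rose (10 lower and 0 higher at an unadjusted p under 0.05), or 4 and 1 with immunoglobulin genes removed. Among them Cd79b, a signalling chain of the B cell receptor, was at 87.8 and 95.6 TPM in old and 149.8 and 129 TPM in young libraries, and its partner Cd79a was at 84.97 and 78.6 TPM in old and 133 and 114 TPM in young libraries. Both fell (limma adjusted p = 0.0230 and 0.0236), also with immunoglobulin genes removed (0.0447 and 0.0477), while Cd37, a tetraspanin and the most abundant of the list, was at 185 and 165 TPM in old and 151 and 156 TPM in young libraries (limma adjusted p = 0.132). Cd37 was the 1 gene of the list called higher with immunoglobulin genes removed, by 0.38 (adjusted p = 0.0353). The 14 monocyte and macrophage markers summed to 1506 and 1624 TPM in old and 2145 and 2042 TPM in young libraries, and 10 fell and 0 rose (13 lower and 0 higher at an unadjusted p under 0.05), or 3 and 0 with immunoglobulin genes removed. Ly6c2, of inflammatory monocytes, fell to 487 and 540.4 TPM in old libraries, against 730.2 and 658 TPM in young ones (limma adjusted p = 0.0321), and Cd68, of lysosomes, fell to 190 and 204 TPM in old libraries, against 244 and 250.2 TPM in young ones (limma adjusted p = 0.0297). Neither was called with immunoglobulin genes removed (0.111 and 0.190). Csf1r, the growth factor receptor of this lineage, was at 180 and 179 TPM in old and 193 and 198 TPM in young libraries (limma adjusted p = 0.154), with a log2 change of -0.12 that turned to 0.07 without immunoglobulin genes.

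The 9 conventional dendritic cell markers summed to 102 and 95.4 TPM in old and 116 and 119 TPM in young libraries, with 1 of the 8 tested higher and 1 lower. None of the 9 was at 0, but Xcr1, too low to be tested, was at 0.18 and 0.30 TPM in old and 0.29 and 0.30 TPM in young libraries. Itgax, the CD11c integrin, rose to 27.9 and 22.6 TPM in old libraries, against 16.4 and 15.7 TPM in young ones (limma adjusted p = 0.0308). Cd209a, of monocyte-derived and type 2 dendritic cells, fell to 14.5 and 16.6 TPM in old libraries, against 37.5 and 38.4 TPM in young ones (limma adjusted p = 0.00632), and Clec10a was at 21.3 and 19.0 TPM in old and 19.1 and 22.0 TPM in young libraries (limma adjusted p = 0.885), with a change of -0.02 that turned to 0.16 without immunoglobulin genes. The 8 plasma cell markers all rose and summed to 1180.0 and 1072 TPM in old and 326 and 297 TPM in young libraries. Jchain, which joins antibody units, was at 759 and 671 TPM in old and 120.4 and 90.2 TPM in young libraries (limma adjusted p = 0.00326). Xbp1, the factor of the secretory programme, was at 263 and 256 TPM in old and 169 and 172 TPM in young libraries (limma adjusted p = 0.0101). Prdm1 and Irf4 are in this list as well as upstream of Ciita. Of the 8 precursor B cell markers 7 fell and 0 rose, 7 and 0 also at an unadjusted p under 0.05. Of 11 megakaryocyte markers tested 2 fell and 0 rose (7 and 0 unadjusted), or 0 and 0 with immunoglobulin genes removed. The 2 of 11 called lower is near the 14.7% of all genes called lower as deposited, where 5.2% were higher. The calls of Jchain and Cd209a were kept with any 1 library left out, and those of Cd79b, Cd79a, Ly6c2, Cd68, Itgax and Xbp1 were lost without young replicate 1. The part of any of these cells in the class II values was not tested.

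**Figure D4:**
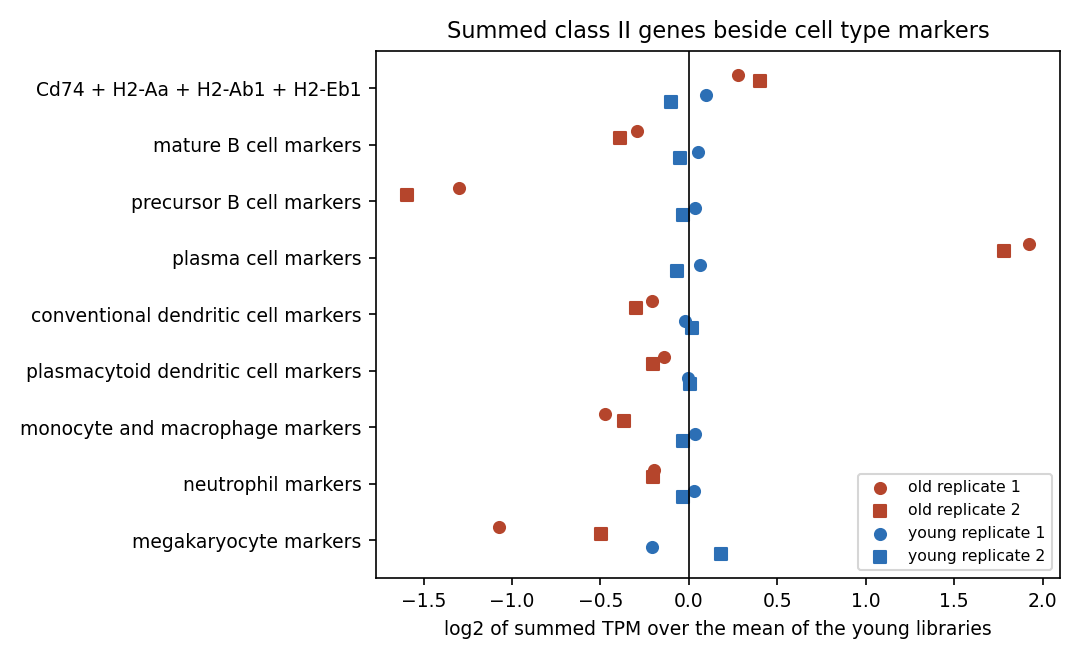
Summed TPM of Cd74, H2-Aa, H2-Ab1 and H2-Eb1 and of 8 marker lists in each library, as log2 of the ratio to the mean of the 2 young libraries, with old in red and young in blue. On these deposited values the class II sum and the plasma cell list lie right of the young libraries in both old ones, and the other 7 lists lie left. The sums are not shown with immunoglobulin genes removed. On that scale the median log2 change per gene, a measure unlike the plotted sums, was 0.004 for neutrophil, 0.18 for plasmacytoid and 0.07 for conventional dendritic cell markers. As deposited these medians were -0.19, -0.004 and -0.12. With immunoglobulin genes removed the median stayed below 0 for the mature B cell, precursor B cell, monocyte and macrophage, and megakaryocyte lists.

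Set against each list within a library, the summed class II level of Cd74, H2-Aa, H2-Ab1 and H2-Eb1 was higher in both old libraries for 11 of 12 denominators and lower for the plasma cell list. Per unit of mature B cell markers it was 3.86 and 4.50 in old and 2.68 and 2.51 in young libraries, 1.61 times as high on the means. Per unit of conventional dendritic cell markers it was 21.9 and 25.4 in old and 16.9 and 14.4 in young libraries, and per unit of monocyte and macrophage markers 1.48 and 1.49 in old and 0.914 and 0.838 in young libraries. Against B2m, the light chain of class I, it was 0.734 and 0.730 in old and 0.606 and 0.528 in young libraries. Per unit of plasma cell markers it was 1.89 and 2.26 in old and 6.01 and 5.76 in young libraries. All 12 ratios share a numerator that was itself higher in both old libraries as deposited, so they are not separate results. The share of all genes that would give such a ratio as denominator was not computed. These ratios were not tested.

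The profile of the classical genes and Cd74 over the 4 libraries was compared with that of 3136 other genes averaging 50 TPM or more, by the distance between log2(TPM + 1) values centred on each gene's mean. The nearest was Ccl6, a chemokine of myeloid cells, at 1162 and 1260.0 TPM in old and 1010.0 and 921 TPM in young libraries (distance 0.0483). Retnlg, a neutrophil gene, followed at 0.0768, then Adgrg1, an adhesion receptor, at 0.110, Klf2, a transcription factor, at 0.120 and Edem2, of endoplasmic reticulum quality control, at 0.136. The distance was 0.108 for H2-Eb1, 0.119 for Cd74, 0.122 for H2-Aa and 0.134 for H2-Ab1, which shaped the profile themselves, and 0.283 for Ciita, 0.384 for H2-DMb1 and 0.724 for H2-DMa, which did not. With only 4 libraries many genes share such a profile.

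**Figure D5:**
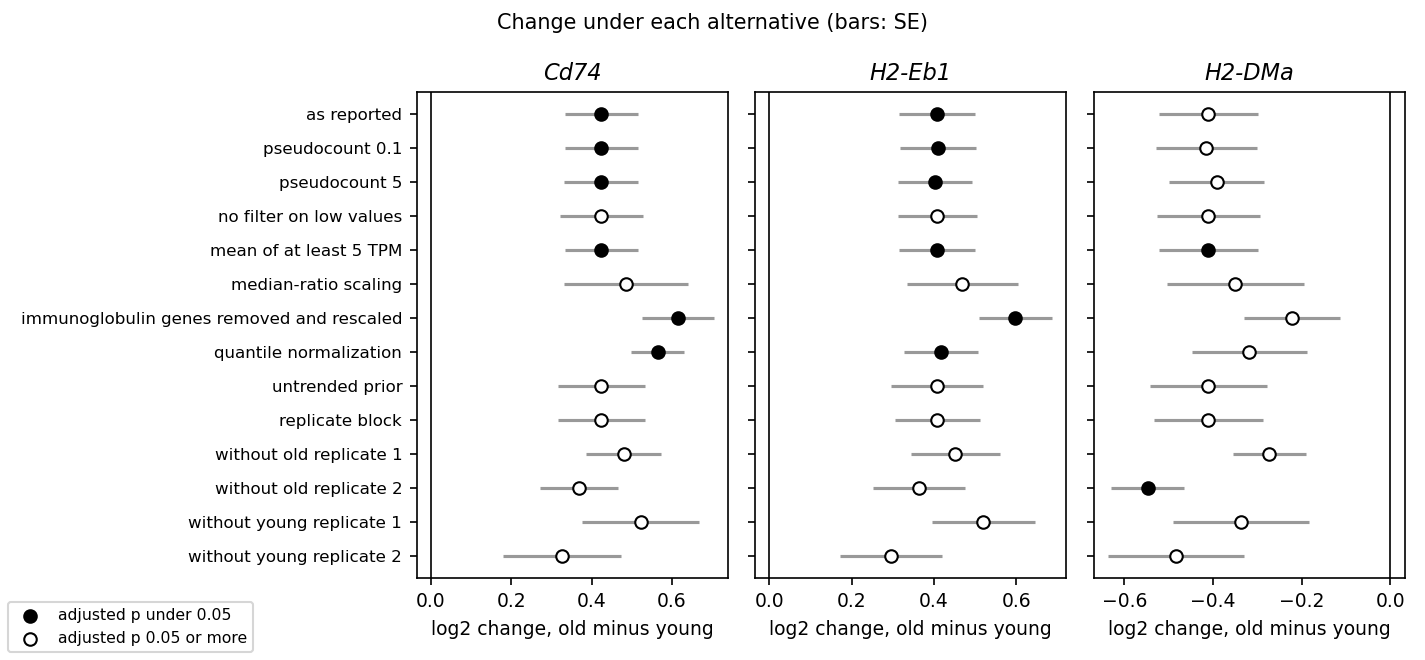
Log2 change, old minus young, of Cd74, H2-Eb1 and H2-DMa as reported and under 13 alternatives, with SE bars and filled circles where the adjusted p was under 0.05. Cd74 and H2-Eb1 stay right of 0 and H2-DMa left of 0 throughout, and Cd74 and H2-Eb1 were each called in 5 of the 13 alternatives and H2-DMa in 2.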

How the data were processed

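RNA was poly(A)-selected and sequenced from stranded libraries, per the labels. Trim Galore, TopHat, STAR, DESeq2, mm9 and GRCm39 appear, with no role stated, per the submitters' processing notes. The TPM values are the authors' own, per the file headers. Log2 fold changes, p-values and a mean normalized signal for changed genes come from the authors' deposited table. Its library columns repeat the TPM values for all 1255 genes (tolerance 1e-06), and its signal was not used. The enrichment tables were not used.

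Genes whose mean reached 1 TPM were fitted with limma 3.58.1 in R 4.3.3 on log2(TPM + 1), with variances that follow a trend with level, on 4 libraries and no covariate. The script was tested on simulated data. Standard errors and 95% intervals come from that fit. A fold on log2(TPM + 1) understates the change of low genes such as Prdm1. The members, lists and tests were chosen with earlier results of these data known. Named were the members, class II relatives, up to 4 called genes of each pathway list (or the 2 highest where none was called), up to 3 of the most abundant genes of a marker list and the 5 nearest profiles; Irf1 falls outside this rule. Immunoglobulin genes removed in one alternative numbered 393. Promoter sequences came from RefSeq (GRCm38.p6) by symbol; a planned comparison of proteins was not run. Figures were drawn with matplotlib 3.10.9.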

Additional observations from a re-analysis of the deposited data

How the results depend on the processing

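Of 91 values of the 7 members under 13 alternatives, 67 kept direction and side of the threshold. The log2 change of Cd74 was not called with no filter on low values, an untrended prior or the replicate block (0.42 each, adjusted p = 0.117, 0.0832 and 0.0689) or median-ratio scaling (0.49), and that of H2-Eb1 likewise (0.41, 0.41, 0.41 and 0.47). H2-DMa was called at a mean of at least 5 TPM (-0.41), and H2-Aa with immunoglobulin genes removed (0.38). H2-DMb1 turned to 0.12 with immunoglobulin genes removed, 0.045 with quantile normalization, 0.031 without old replicate 1 and 0.058 without young replicate 1, and Ciita to -0.031 without young replicate 2. With 1 library left out the change ranged from 0.33 to 0.52 for Cd74, 0.30 to 0.52 for H2-Eb1, 0.11 to 0.26 for H2-Aa, 0.08 to 0.28 for H2-Ab1, -0.55 to -0.27 for H2-DMa, -0.20 to 0.06 for H2-DMb1 and -0.03 to 0.10 for Ciita; the lone library is assumed to vary like the other group.

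Members called higher numbered 2 as reported and 0 with no filter, median-ratio scaling, an untrended prior, the replicate block and each library left out; members lower numbered 1 at a mean of at least 5 TPM and 0 to 1 with a library left out. Other pathway genes called were 0 higher and 0 lower with no filter, 6 and 2 by median ratio, 9 and 0 with immunoglobulin genes removed, 2 and 0 with an untrended prior, 3 and 0 with the replicate block, and 1 to 5 higher and 0 to 7 lower with a library left out. All genes called were 835 higher and 2369 lower as reported, 71 and 59 with no filter, 953 and 900 by median ratio, 1295 and 508 with immunoglobulin genes removed, 902 and 1289 after quantile normalization, 309 and 263 with an untrended prior, 496 and 756 with the replicate block, and 255 to 734 and 98 to 1766 with a library left out. The cause was not tested.

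Deviations of same-numbered libraries correlated at -0.146 across genes. A single correlation over genes that are not independent cannot decide whether the numbers pair the samples, and the labels do not say. With the old numbers crossed, a block chosen after seeing the data, 1498 genes were higher and 3151 lower, as were 2 and 1 members and 6 and 9 other pathway genes. The ratio of the class II sum in old over young was 1.61 per mature B cell marker and 1.29 against B2m, 3.49 per precursor B cell, 1.43 per plasmacytoid dendritic cell, 1.46 per neutrophil, 2.15 per megakaryocyte, 1.25 per T and NK cell, 1.83 per eosinophil and basophil and 1.39 per endothelial marker, and turned to 0.353 per plasma cell marker. Of 466 values of 36 other named genes, 456 kept their direction, 2 were at 0 (S100a9 and Retnlg with quantile normalization) and 8 turned. After removal of immunoglobulin genes H2-Oa turned to 1.28e-05, Csf1r to 0.066, S100a9 to 0.0036 and Clec10a to 0.16; Clec10a also turned to 0.034 under median-ratio scaling and 0.066 with quantile normalization, and spanned -0.12 to 0.074 with a library left out, at 0.055 without old replicate 2. TPM keeps no depth, so counting error is unknown.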
